A study of Mus musculus with 6 samples.

Results

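Group 2 innate lymphoid cells (ILC2) sorted from mesenteric lymph nodes (MLN) were compared before and after culture, across all genes. The comparison took every library that the labels name as cultured or fresh MLN ILC2, which was 2 cultured and 2 fresh libraries, 4 of the 6 in the study. Another 2 libraries hold ILC2 taken straight from the thymus, and their levels are given beside the others. These levels took no part in choosing the genes switched on or shut off. All mice were homozygous for a transgene that expresses Id1 under the proximal promoter of lck, made in FVB/N mice and backcrossed to the C57BL/J background. T cell development is blocked in these mice and ILC2 accumulate, so that every group here carries the transgene and none is wild type. Fresh cells went straight from the sort (lineage-negative, Thy1+ and ST2+) into RNA preparation. Cultured cells had been sorted the same way and then kept in culture for 1 week, with 10 ng/ml each of IL-33, IL-25 and IL-7. About 300000 cells were used per sample. The labels name no sample cultured without these cytokines, so the effect of the cytokines and that of a week outside the animal cannot be told apart. Cultured and fresh cells also differed in Id1 RNA, as given below, and this difference cannot be separated from culture either. They do not say whether libraries of a group came from separate animals or cultures, nor give the age of the mice.

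ILC2 are lymphocytes without a rearranged antigen receptor that sit in barrier tissues and lymph nodes. They are driven by cytokines released from damaged or stimulated tissue: IL-33 binds ST2 (encoded by Il1rl1), IL-25 binds a receptor containing IL-17RB, and IL-7 binds IL-7R, which signals through STAT5. Activated ILC2 are best known for secreting IL-5 and IL-13, which recruit eosinophils and drive mucus production. Gata3, a transcription factor that ILC2 need, was read at 1033 and 1063 CPM (counts scaled to a common library size) in the 2 cultured libraries and at 622 and 599 in the 2 fresh ones. Rora, another such factor, was at 163 and 129 CPM in cultured and 639 and 582 in fresh libraries. Il1rl1 lay at 2288 and 2341 CPM in cultured and 1884 and 1818 in fresh libraries, and Thy1 at 107 and 119.6 in cultured and 371 and 299.6 in fresh ones. Cd8a, a marker of T cells that the sort excludes, was at 0 and 0.0551 CPM in cultured and 0.462 and 0.345 in fresh libraries. Cd3e, a chain of the T cell receptor complex, was present in both groups, at 43.2 and 47.6 CPM in cultured and 90.2 and 101 in fresh libraries.

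Libraries held between 36103469 and 40578264 counts in the MLN groups, and 3 counts in a library equalled between 0.0771 and 0.0905 CPM. CPM here is scaled by TMM, which adjusts the total of each library for its composition. Of 37991 genes listed, 16231 had enough counts to be tested. The quasi-likelihood test of edgeR called 12592 of them at an adjusted p under 0.05, which is 77.6% of those tested, 6403 higher (39.4%) and 6189 lower (38.1%) in cultured cells. When the change had to exceed 2-fold, 3189 genes (19.6%) passed as higher and 2487 (15.3%) as lower. With library totals alone the median of all genes moved by -0.22 on the log2 scale, and the calls became 5382 higher and 7498 lower, so which direction holds more calls depends on the scaling. Fold changes were large in both directions, and among called genes 283 were at least 100-fold higher and 122 at least 100-fold lower. In 89.2% of genes tested, the 2 cultured libraries did not overlap the 2 fresh ones. In bulk RNA, fewer cells that express a gene and less of its RNA per cell cannot be told apart.

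**Figure D1:**
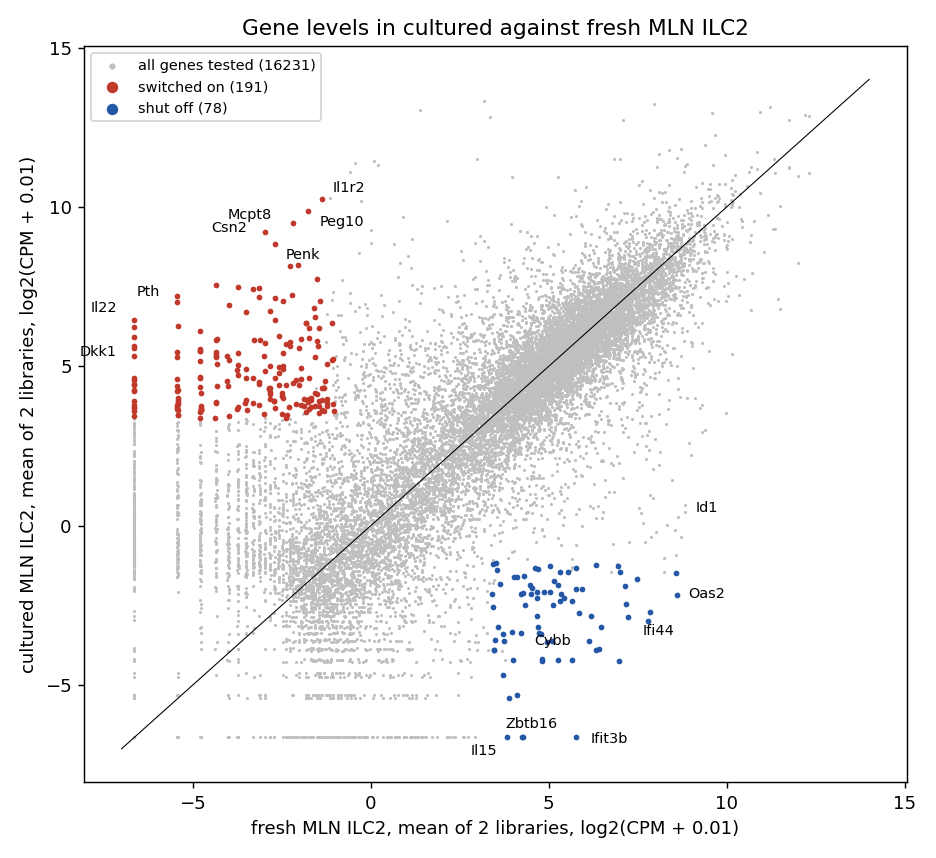
Mean level of each of the 16231 genes tested in fresh (horizontal) and cultured (vertical) MLN ILC2, as log2(CPM + 0.01) over 2 libraries per group; the line marks equal levels. The 191 genes switched on stand at the upper left and the 78 genes shut off at the lower right, and Il1r2 and Oas2 are the most abundant of each.

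A gene was counted as switched on when each fresh library was at or under 0.5 CPM and each cultured library at or over 10 CPM, and as shut off in the reverse case. The classes were cut from the comparison itself, so that the edgeR calls of their members (191 of 191 and 78 of 78, against 77.6% of all genes) carry no further weight. Culture switched on 191 genes, 1.18% of those tested, and shut off 78, 0.481%. Counts followed the limits: with a near-zero limit of 0.2 CPM they were 112 and 36, and with a high limit of 20 CPM 102 and 49. Of the 191, 178 are annotated as protein coding and 18 had no count in either fresh library. Their mean cultured level ran from 10.3 to 1221 CPM with a median of 23.1, and 23 of them passed 100 CPM. At the edges of the class, Pbk was just inside the near-zero limit (0.488 and 0.319 CPM in fresh libraries) and Nupr1 just outside it (0.514 and 0.425). Hc was just outside the high limit (9.92 and 12.8 CPM in cultured libraries).

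Thymus ILC2, which were also uncultured, did not take part in the choice. In both thymus libraries 133 of the 191 genes (69.6%) were at or under 0.5 CPM, and 4 (2.09%) were at or over 10 CPM. The share near zero was close to that of the 2123 other tested genes that were near zero in fresh MLN, of which 1513 (71.3%) were near zero in thymus too. Genes were admitted to testing on their counts in all 6 libraries, thymus included, which affects this second share. The difference between the shares was not tested. The 4 genes high in thymus are Pbk, E2f7, Troap and Mxd3, all with roles in the cell cycle.

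The most abundant switched-on gene was Il1r2 (ENSMUSG00000026073), which encodes a decoy receptor that binds IL-1 without signalling. It was read at 1063 and 1378 CPM in the cultured libraries, 0.437 and 0.319 in the fresh ones and 0.271 and 0.399 in thymus. Both cultured libraries were high and the other 4 were near zero, a 3232-fold difference between MLN groups (log2 fold change 11.64 ± 0.19 SE, adjusted p = 3.01e-14). Peg10 (ENSMUSG00000092035), an imprinted gene derived from a retrotransposon and best known from placenta, was read at 924 and 935 CPM in cultured and 0.308 and 0.265 in fresh libraries, 3241-fold. Its neighbour Sgce, which is imprinted with it, was without counts in fresh cells and at 41.8 and 38.7 CPM in cultured ones, at least 1028-fold higher. Each pair of cultured libraries stood clear of the fresh ones. Il1r2 was the only switched-on gene among the 100 most abundant genes of cultured cells by counts.

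Genes for secreted cytokines, chemokines, hormones and guidance factors made up 17 of the class, with cultured levels from 10.9 to 455 CPM, and 15 of them were near zero in thymus. The role groups here, and the examples in them outside the naming rule given with the processing, were chosen after the values were seen. Penk (ENSMUSG00000045573), the precursor of enkephalin opioid peptides, was at 414 and 495 CPM in cultured and 0.154 and 0.133 in fresh libraries, 3169.6-fold. Il9, a cytokine that acts on mast cells and on ILC2 themselves, was at 221 and 153 CPM against 0.0514 and 0.0265, a fold of 4728 by ratio of counts (95% interval 1618 to 22932). Il10, an anti-inflammatory cytokine, was at 180.2 and 176 CPM against 0.103 and 0.0265, 2756-fold. In each of the 3 the cultured libraries were high and those of fresh MLN and thymus were under 0.5 CPM.

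Il22, a cytokine that acts on epithelium and is otherwise typical of group 3 innate lymphoid cells, had no count in fresh MLN and was at 104 and 72.4 CPM in cultured cells, at least 2255-fold higher and the highest fitted log2 fold change among the genes considered for naming (14.69 ± 0.44 SE, adjusted p = 1.64e-11). Dkk1, a secreted inhibitor of Wnt signalling, was likewise without counts in fresh cells and at 35.7 and 58.7 CPM in cultured ones, at least 1205-fold higher, with the second cultured library well above the first. Ccl3, a chemokine for monocytes and lymphocytes, was at 68.8 and 44.3 CPM against 0.0514 and 0.159, with the first library the higher. These 3 genes varied between the cultured libraries by more than Il10 did, but by far less than the distance to fresh cells.

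Hormones and growth factors were among the secreted products too. Pth, the gene for parathyroid hormone, which raises blood calcium, was at 155 and 137 CPM in cultured cells, with 1 count in fresh MLN. Il33, the alarmin also supplied to the culture as protein, was at 53.2 and 46.7 CPM against 0.206 and 0.186. Kitl, the ligand of Kit, was at 17.2 and 20.3 CPM and without counts in fresh cells. Sema3e, a guidance factor that binds plexin receptors, was at 74.6 and 78.1 CPM with 1 count in fresh cells. All 4 genes were at or under 0.1 CPM in both thymus libraries.

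The class held 8 genes grouped under secreted proteases, protease inhibitors and lipases. Mcpt8 (ENSMUSG00000022157), a serine protease best known from basophils, was at 587 and 866 CPM in cultured and 0.231 and 0.186 in fresh libraries, 3485-fold. Prss35, of the family of trypsin-like proteases, was without counts in fresh cells and thymus. It was at 53.1 and 68.3 CPM in cultured cells, at least 1551-fold higher. Gzmc, a granzyme whose gene lies near Mcpt8, was at 32.4 and 52.6 CPM against 0.0771 and 0.265. In all 3 the second cultured library was the higher.

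Milk protein genes formed a small group of 3. Csn2 (ENSMUSG00000063157), beta-casein, was at 616 and 562 CPM in cultured libraries, 0.103 and 0.133 in fresh MLN and 0.148 and 0.160 in thymus, a 4999-fold difference (log2 fold change 12.25 ± 0.14 SE, adjusted p = 4.31e-15). Csn3, kappa-casein, was at 24.0 and 22.6 CPM against 0.103 and 0. Csn1s2b was at 13.8 and 10.5 CPM and without counts in fresh cells and thymus. Casein transcription is a textbook target of prolactin through STAT5 in the mammary gland. The 3 genes lie within 5 tested genes of each other on chromosome 5 in the GENCODE M21 order, and all were at or under 0.16 CPM in both thymus libraries.

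STAT factors bind sites of the form TTCNNNGAA, called GAS, which read the same on both strands. Of the 27025 genes in a RefSeq promoter table (build GRCm38.p6), 9.55% held these letters between 250 bases before and 50 bases after the start, on either strand. Promoters were listed for 133 of the 191 switched-on genes, and 13 of these (9.77%) held the letters. That share was close to the 9.55%, and to 8.41% of the 10703 promoters matched to genes tested. The promoters of Csn2 and of Il1r2, the gene of the class with the most counts, each held 1 match in the 250 bases before the start. They are printed 5′ to 3′ as examples of switched-on genes, with the match in capitals. A match describes the letters only and is not evidence of binding.
Csn2, chr5:87699426-87699675, minus strand, match beginning 93 bases before the start: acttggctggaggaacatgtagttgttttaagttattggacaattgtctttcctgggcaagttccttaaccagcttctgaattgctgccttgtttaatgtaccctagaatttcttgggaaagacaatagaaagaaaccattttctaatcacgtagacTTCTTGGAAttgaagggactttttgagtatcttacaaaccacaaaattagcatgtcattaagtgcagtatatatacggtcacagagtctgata
Il1r2, chr1:40085843-40086092, plus strand, match beginning 111 bases before the start: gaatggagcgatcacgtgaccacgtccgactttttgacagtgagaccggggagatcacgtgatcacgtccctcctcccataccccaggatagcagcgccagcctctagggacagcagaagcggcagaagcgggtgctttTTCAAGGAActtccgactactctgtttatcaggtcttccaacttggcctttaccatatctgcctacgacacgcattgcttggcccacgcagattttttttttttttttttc

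Cell surface receptors were the largest role group among genes that could be assigned. They were 22 genes between 13.0 and 1221 CPM, of which 16 were near zero in thymus. Gpr55 (ENSMUSG00000049608), a receptor for lysophosphatidylinositol, was at 276 and 286 CPM in cultured and 0.180 and 0.212 in fresh libraries, 1435-fold. P2rx1, an ATP-gated ion channel, was at 182 and 165 CPM against 0.0771 and 0.106, 1890.4-fold. Ctla4, an inhibitory receptor of T cells, was at 149.7 and 151 CPM against 0.334 and 0.0796, with 4.61 and 3.08 in thymus, and Havcr2 (TIM-3) was at 99.0 and 88.2 against 0.283 and 0.372. The cultured libraries of these receptors lay close together and above every other library. Purine receptors appeared more than once: P2ry2, a receptor for ATP and UTP, was at 24.7 and 25.6 CPM against 0.0514 and 0, and Adora2b, a receptor for adenosine, at 39.2 and 38.3 against 0.0257 and 0.0531. Htr1b, a serotonin receptor, was at 63.5 and 53.3 CPM against 0.257 and 0.239, and Ptger3, a prostaglandin E2 receptor, at 50.9 and 55.8 against 0.0771 and 0.159. Egfr, the receptor through which amphiregulin acts, was at 16.7 and 14.1 CPM with 1 count in fresh cells.

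Adhesion molecules and matrix components counted 13. Itgb8, an integrin chain that activates TGF-beta, was at 142 and 120.5 CPM against 0.154 and 0.186, 772-fold. Alcam, an adhesion molecule of activated leukocytes, was at 83.8 and 80.2 CPM against 0.488 and 0.425, and Nid1, a basement membrane protein, at 56.7 and 60.4 against 0.231 and 0.345. In both the cultured libraries agreed closely and fresh ones were under 0.5 CPM. Abcb5, an ATP-driven transporter and 1 of 7 transporters and channels of the class, had no count in fresh cells and was at 51.8 and 48.1 CPM in cultured cells, at least 1275-fold higher. Ermn, which encodes an actin-binding protein best known from myelin, had no count in fresh cells either and was at 67.1 and 82.1 CPM, at least 1906-fold higher. Neither gene had more than trace counts in thymus (at or under 0.0532 CPM).

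Metabolic enzymes made up 19 of the class, between 10.4 and 288 CPM. Scd1, the desaturase that makes oleic acid from stearic acid, was at 293 and 283 CPM in cultured and 0.283 and 0.186 in fresh libraries, 1230.5-fold. Alox8, a lipoxygenase of arachidonic acid, was at 150.4 and 202 CPM against 0.128 and 0.0796, 1694-fold. Asns, asparagine synthetase, was at 103 and 105 CPM against 0.128 and 0.0265, 1344-fold. Both cultured libraries were above 100 CPM for each of the 3, and every fresh library was under 0.5. Pycr1, which completes proline synthesis, was at 17.8 and 15.7 CPM against 0.206 and 0.133, and Chac1, which degrades glutathione, at 12.5 and 11.4 against 0.0514 and 0. Me1, malic enzyme, stood at 119 and 143 CPM with 1 count in fresh cells. All these genes were under 1 CPM in thymus. Mt1, a metallothionein that binds zinc and copper, was at 189 and 241 CPM against 0.308 and 0.372, 632-fold, and Mt2, its neighbour and relative, at 138 and 146 against 0.103 and 0.186, 985-fold.

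The near-zero limit kept out genes that were as strongly induced but lay slightly above it in fresh cells. Tph1, which makes the precursor of serotonin, was at 2999.7 and 2614 CPM in cultured and 1.03 and 1.09 in fresh libraries, 2653-fold (log2 fold change 11.37 ± 0.18 SE, adjusted p = 1.94e-14). Cyp11a1, which makes pregnenolone from cholesterol as the first step of steroid synthesis, was at 2134 and 2252 CPM against 0.668 and 0.637, 3361-fold. Star, which delivers cholesterol to that enzyme, fell from 10.1 and 12.5 to 4.61 and 3.69 CPM. Areg, the growth factor amphiregulin, was at 430.1 and 495 CPM against 0.976 and 1.01, 466-fold. Of the 9 type 2 cytokines and effectors tested 8 rose and 1 fell, beside 39.4% and 38.1% of all genes tested. The gene that fell was Arg1, arginase, from 97.6 and 87.4 to 59.3 and 49.3 CPM. Il4 was among the 8 but changed little, at 49.0 and 49.9 CPM against 38.4 and 40.0. For Tph1, Cyp11a1 and Areg the thymus libraries were at or under 1.5 CPM.

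Asns, Chac1, Pycr1 and the transporter gene Slc1a4 belong to a list of 28 genes of amino acid transport, the serine pathway and the response to ATF4, a transcription factor made when amino acids run short. Of the list 25 rose and 2 fell, against 39.4% and 38.1% of all genes tested, with a median log2 fold change of 1.82 beside -0.01 over all genes. Atf4 was at 417 and 393 CPM in cultured and 119.9 and 138 in fresh libraries, and Trib3, a pseudokinase it induces, at 24.9 and 22.4 against 0.0771 and 0.372. ATF4 sites take the form TGATGNAA, searched on both strands after the values were seen, and 4.51% of the 27025 promoters held it. The promoters of Asns and Pycr1 each held 1 match before the start, in capitals below.
Asns, chr6:7693210-7693459, minus strand, match beginning 23 bases before the start: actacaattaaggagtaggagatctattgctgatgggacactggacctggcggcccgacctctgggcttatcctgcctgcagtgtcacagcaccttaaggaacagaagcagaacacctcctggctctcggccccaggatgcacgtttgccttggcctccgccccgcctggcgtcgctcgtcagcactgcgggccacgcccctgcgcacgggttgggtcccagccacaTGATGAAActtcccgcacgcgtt
Pycr1, chr11:120643749-120643998, minus strand, match beginning 103 bases before the start: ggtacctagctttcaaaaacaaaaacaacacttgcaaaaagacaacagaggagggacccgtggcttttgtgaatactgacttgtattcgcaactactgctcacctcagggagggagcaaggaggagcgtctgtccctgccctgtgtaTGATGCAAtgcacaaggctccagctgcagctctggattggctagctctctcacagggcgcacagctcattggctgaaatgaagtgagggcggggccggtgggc

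**Figure D2:**
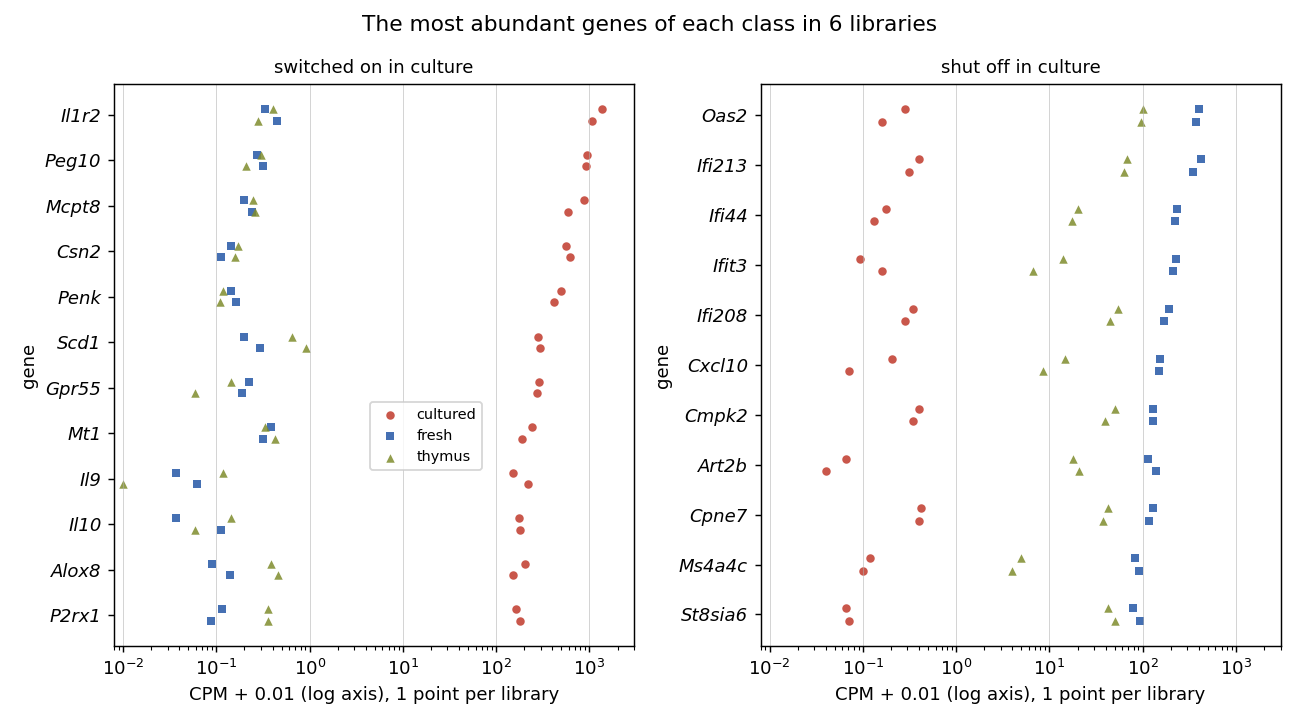
Levels of the 12 most abundant switched-on genes (left) and 11 of the 12 most abundant shut-off genes (right) with a symbol, as CPM + 0.01 on a log axis, with 1 point for each of 2 cultured, 2 fresh MLN and 2 thymus libraries. For switched-on genes the thymus points lie with the fresh ones, and for shut-off genes they lie between fresh and cultured.

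Shut-off genes were fewer, with fresh levels from 10.6 to 389 CPM and a median of 28.0. Of the 78, 62 are annotated as protein coding, 11 passed 100 CPM in fresh cells and 4 had no count in either cultured library. At the edges, Serpina3f was just inside the near-zero limit (0.211 and 0.496 CPM in cultured libraries) and Trbj1-3 just outside it (0.513 and 0.276). Tmem35a was just inside the high limit (10.2 and 11.9 CPM in fresh libraries) and Gm17200 just outside it (9.84 and 10.1). None of the 78 was near zero in both thymus libraries, and 49 (62.8%) were at or over 10 CPM in both. Among the 8815 other tested genes that were at or over 10 CPM in both fresh libraries, 8544 (96.9%) were so in thymus. The difference between these shares was not tested, and the genes were not matched for level.

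Interferon-inducible genes were the largest role group among genes that could be assigned, with 14 of the 78, from 11.9 to 389 CPM in fresh cells. Oas2 (ENSMUSG00000032690), which makes the messenger that activates RNase L, was at 375 and 402 CPM in fresh MLN, 0.151 and 0.276 in cultured cells and 96.5 and 101 in thymus. That was a 1823-fold drop between MLN groups (log2 fold change -10.79 ± 0.14 SE, adjusted p = 7.21e-15). Ifi213, of the family of DNA sensors that includes AIM2, was at 342 and 416 CPM in fresh and 0.302 and 0.386 in cultured libraries, and its relative Ifi208 at 167 and 193 against 0.271 and 0.331. Fresh MLN was highest, thymus lay between and cultured cells were near zero.

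Ifi44, an interferon-induced protein of uncertain function, was at 223 and 232 CPM in fresh and 0.121 and 0.165 in cultured libraries, 1594-fold lower. Cxcl10, the interferon-induced chemokine that binds CXCR3, was at 148 and 154 CPM against 0.0603 and 0.193, 1193-fold lower. Ifit3, which binds viral RNA complexes, was at 213 and 225 CPM against 0.151 and 0.0827, and its copy Ifit3b at 50.9 and 58.1 against no count. Because the 2 copies are nearly identical, how reads were divided between them is uncertain. Cmpk2, a mitochondrial nucleotide kinase induced by interferon, was at 128 and 129 CPM against 0.332 and 0.386. In thymus these genes stood at lower levels than in fresh MLN, for example 8.48 and 14.7 CPM for Cxcl10 and 6.63 and 13.8 for Ifit3.

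The same direction held across the lists of interferon-responsive genes. Of 30 interferon-stimulated genes 29 fell and 1 rose, with a median log2 fold change of -5.23, against 38.1% of all genes falling. The gene that rose was Ly6a (Sca-1), at 4857 and 4957 CPM in cultured and 820.4 and 811 in fresh libraries. Irf7, the transcription factor that amplifies the response, was at 569.6 and 639.8 CPM in fresh and 11.1 and 14.6 in cultured libraries. All 13 interferon-inducible GTPases fell (median -2.94), with Iigp1, which attacks the vacuoles of parasites, at 449.6 and 454 CPM against 1.21 and 1.87. All 14 genes of MHC class I presentation fell as well but by less (median -1.13): B2m, the light chain, was at 4181 and 3969 CPM against 1997 and 2035, and Nlrc5, the activator of the class I genes, at 573 and 540.1 against 80.6 and 84.9. The class I list took 2.13% and 2.11% of counts in the fresh libraries and 0.781% and 0.807% in the cultured ones. H2-Q genes and Tgtp1 with Tgtp2 are near-identical copies and their single values are uncertain.

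Interferon response elements (ISRE) were searched as GAAA, 2 bases of any kind and GAAA, on both strands, and 3.99% of the 27025 promoters held it. Promoters of the shut-off genes Ifit3 and Cxcl10 are printed with their matches in capitals, 2 in Ifit3 and 1 in Cxcl10.
Ifit3, chr19:34583279-34583528, plus strand, matches beginning 156 and 122 bases before the start: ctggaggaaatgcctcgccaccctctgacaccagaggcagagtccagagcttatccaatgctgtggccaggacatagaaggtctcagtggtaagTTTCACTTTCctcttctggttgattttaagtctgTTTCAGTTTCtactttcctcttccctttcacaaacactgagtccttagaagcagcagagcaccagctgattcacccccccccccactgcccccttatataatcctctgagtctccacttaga
Cxcl10, chr5:92348890-92349139, minus strand, match beginning 213 bases before the start: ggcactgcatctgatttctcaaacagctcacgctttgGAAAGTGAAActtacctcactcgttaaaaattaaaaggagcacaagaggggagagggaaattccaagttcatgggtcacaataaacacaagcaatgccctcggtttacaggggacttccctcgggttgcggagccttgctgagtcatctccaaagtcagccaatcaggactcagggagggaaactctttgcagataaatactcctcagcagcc
The table held a promoter for 133 of the 191 switched-on genes, 38 of the 78 shut-off genes and 19 of the 30 interferon-stimulated genes. Under 80% of each set could be read, so shares of promoters with a motif cannot stand for these whole sets. Only the share with GAS letters among switched-on genes is given.

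Lymphocyte surface molecules and adaptors were 8 of the shut-off genes. Art2b, a surface enzyme that ADP-ribosylates T cell proteins, was at 139.7 and 113 CPM in fresh libraries, with 3 counts over the cultured ones. Klrk1 (NKG2D), an activating receptor, was at 11.7 and 17.9 CPM in fresh libraries with 1 count over the cultured ones, and Cd6, a co-receptor of T cells, was at 22.3 and 15.1 against 0.271 and 0.165. Cultured libraries were near zero for all 3, and thymus was not.

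Among transcription regulators, 5 were shut off. Zbtb16 (PLZF), which marks progenitors of innate lymphocytes, had no count after culture. It was at 10.3 and 28.7 CPM in fresh MLN, where the second library was well above the first, and at 44.8 and 47.8 in thymus, so that the fall was at least 452-fold (log2 fold change -12.51 ± 1.12 SE, adjusted p = 5.50e-07). Bach2, a repressor that restrains effector genes, was at 28.8 and 36.9 CPM in fresh and 0.422 and 0.386 in cultured libraries, 81.3-fold lower. Tcf7 (TCF-1), required early in ILC2 development, fell short of the limit with 220.2 and 247 CPM in fresh and 0.633 and 0.909 in cultured libraries, 303-fold lower.

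T cell receptor segments contributed 8 genes, 7 of them joining segments of the beta locus on chromosome 6. The most abundant, Trbj1-2, was at 57.9 and 49.9 CPM in fresh, 0.362 and 0.413 in cultured and 68.0 and 58.3 in thymus libraries. The constant gene Trbc1 was at 269 and 276 CPM against 3.65 and 3.89, and Trbc2, a near-identical copy, at 206 and 207 against 9.71 and 8.74. ILC2 can carry transcripts of an unrearranged locus, and counts per segment do not show whether a locus is rearranged. Among receptors and channels shut off, Trpa1, an irritant-gated channel, was at 15.6 and 17.1 CPM against 0.271 and 0.358, and Hrh4, a histamine receptor, at 11.1 and 12.2 against 0.332 and 0.413. Thymus libraries were above 10 CPM for both of these. Il15, the cytokine of NK cells and memory T cells, had no count after culture and was at 13.2 and 15.1 CPM before, at least 327-fold lower.

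Other abundant shut-off genes had varied roles. Cpne7, a calcium-binding copine, was at 116 and 128 CPM in fresh and 0.392 and 0.413 in cultured libraries, close to the limit of the class. Ms4a4c, of the MS4A membrane protein family, was at 92.3 and 83.6 CPM against 0.0905 and 0.110, and St8sia6, a sialyltransferase, at 92.7 and 78.6 against 0.0603 and 0.0551. Fresh libraries exceeded thymus in all 3, by most for Ms4a4c (3.94 and 4.94 CPM in thymus). Olfr1033, annotated as an olfactory receptor, was at 16.5 and 21.3 CPM in fresh cells with no count after culture.

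Neighbouring genes were found in both classes. Among 185 switched-on genes placed in the GENCODE M21 order, 39 had another switched-on gene within 5 tested genes, in 19 groups such as Il10 with Il24, Mt1 with Mt2 and Mcpt8 with Gzmc. Among 74 shut-off genes, 24 were in 7 groups, including Ifi204, Ifi208, Ifi213 and Ifi214 on chromosome 1, Ifit3 with Ifit3b and Ifit1bl1 on chromosome 19, and Oas2 with Oas1g on chromosome 5. These counts were not set against a background.

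Abundance shares show where the reads of a library went. The 191 switched-on genes took 1.01% and 1.07% of counts in the cultured libraries and 0.00295% and 0.00291% in the fresh ones. The 78 shut-off genes took 0.442% and 0.458% in fresh and 0.00116% and 0.00138% in cultured libraries. The switched-on genes were thus a small part of the reads of cultured cells, and 5 of them were among the 500 most abundant genes.

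The 10 most abundant genes took 7.43% and 7.34% of counts in cultured libraries against 4.09% and 4.08% in fresh ones, and the 100 most abundant took 22.4% against 15.6%. To reach 50% of the counts took 792 and 795 genes in cultured, 1078 and 1074 in fresh and 1166 and 1160 in thymus libraries. Cultured libraries were therefore the more concentrated at each of these sizes, with no overlap between groups. Of the 10 most abundant genes of each group 3 were shared (Eef1a1, Eef2 and mt-Co1), of the 100 most abundant 42 were, and of the 500 most abundant 254.

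Among the 10 with the largest share in cultured cells, Il13 took 0.920% and 0.900% of counts and Il5 0.804% and 0.692%. Furin (ENSMUSG00000030530), a protease of the Golgi that cleaves precursors of secreted proteins, came second with 0.864% and 0.846%, from 0.0267% and 0.0256% and rank 774 in fresh cells. Gzmb, granzyme B, took 0.515% and 0.771%, and its level was 5749.8 and 8622 CPM in cultured and 11.0 and 9.56 in fresh libraries. The cultured libraries differed more in Gzmb than in the other 9 genes of this set. Il2ra, the IL-2 receptor alpha chain, took 0.707% and 0.694%, with 7898 and 7758 CPM against 814 and 715. Ero1l, an oxidase that forms disulfide bonds in the endoplasmic reticulum, came eleventh with 0.653% and 0.568% and was at rank 1748 in fresh cells.

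Reads per gene grow with the length of a transcript, so ranks were also taken per kilobase of exon. On that scale Il13, Tmsb4x, Il5 and Gzmb were the 4 most abundant of cultured cells, while Furin dropped to rank 33 and Il2ra to rank 24. In fresh cells Eef1a1, a translation factor, led by counts with 0.550% and 0.519%, and B2m led per kilobase. Rnf213, a very large interferon-inducible ubiquitin ligase, took 0.430% and 0.422% of counts in fresh libraries and 0.0290% and 0.0254% in cultured ones, and was at rank 126 per kilobase. Il17rb took 0.303% and 0.304% in fresh libraries and 0.0106% and 0.00950% in cultured ones, a move from rank 9 to rank 2227. H2-K1, a heavy chain of MHC class I, took 0.530% and 0.525% in fresh and 0.185% and 0.195% in cultured libraries.

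**Figure D3:**
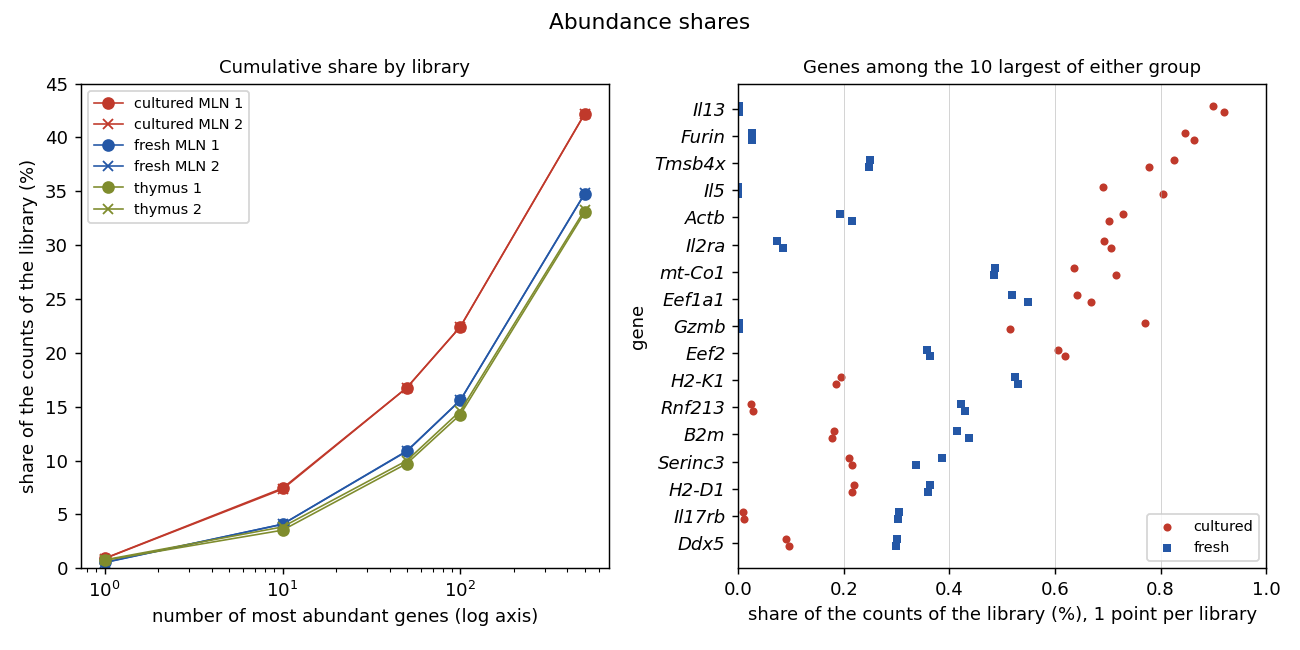
Left, share of counts taken by the 1, 10, 50, 100 and 500 most abundant genes of each library against their number on a log axis; right, share of counts of each gene among the 10 largest of either group, with 1 point per library. The cultured lines lie above the fresh and thymus ones from 10 genes on, and Furin, Il2ra, Gzmb, Rnf213 and Il17rb change place between groups.

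Gene lists were read as counts of members called beside the same over all genes tested. In 21 of 48 lists at least 75% of members were called in a single direction. The 3 lists with the highest median among those of at least 20 genes were the cell cycle, glycolysis and hypoxia, and other secreted cytokines. All 36 cell cycle genes rose (median 4.39), against 39.4% of all genes tested. Ube2c, which directs mitotic regulators to degradation, was at 65.9 and 69.9 CPM in cultured, 1.08 and 0.531 in fresh and 40.6 and 42.7 in thymus libraries, and Birc5 (survivin) at 64.1 and 72.5 in cultured, 1.67 and 1.75 in fresh and 52.9 and 59.2 in thymus libraries. Cultured and thymus cells were high and fresh MLN low. Of 30 genes of DNA replication and nucleotide supply 29 rose (median 1.42), with Rrm2, which makes deoxynucleotides, at 214 and 233 CPM against 6.88 and 8.28.

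Promoters of many mitotic genes hold a CHR element, TTTGAA, and CCAAT boxes. The RefSeq table held promoters for 29 of the 36 cell cycle genes, and 18 of these (62.1%) had TTTGAA on either strand, against 20.2% of all 27025 promoters in the table and 14.7% of the 10703 matched to genes tested. CCAAT was in 20 (69.0%), against 41.1% and 42.5%. The 10703 promoters cover 65.9% of the genes tested, so this background cannot stand for all of them. The promoter of Ube2c is shown as an example, with the CHR match, read on the other strand, in capitals.
Ube2c, chr2:164769679-164769928, plus strand, match beginning 29 bases before the start: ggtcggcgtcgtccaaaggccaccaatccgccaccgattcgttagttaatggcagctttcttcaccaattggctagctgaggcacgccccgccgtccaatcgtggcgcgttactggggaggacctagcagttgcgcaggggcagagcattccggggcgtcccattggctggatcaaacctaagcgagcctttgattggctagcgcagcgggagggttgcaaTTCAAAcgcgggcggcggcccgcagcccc

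Lists of glycolysis, sterol synthesis and the endoplasmic reticulum rose with few exceptions. Of 25 genes of glycolysis and the hypoxia response 23 rose and 1 fell (median 3.10), and their share of counts was 1.59% and 1.67% in cultured and 0.251% and 0.243% in fresh libraries. Aldoc, an aldolase, was at 95.9 and 99.6 CPM against 0.565 and 0.531, and Egln3, an oxygen sensor induced by HIF, at 541 and 544 against 8.58 and 8.07. Of 26 genes of sterol synthesis and uptake 23 rose (median 2.25). Of 29 genes of the endoplasmic reticulum 28 rose (median 2.11), and their share of counts was 2.60% and 2.50% against 0.613% and 0.572%. Hspa5 (BiP), the main chaperone there, was at 2181 and 2168 CPM against 475 and 423. The 22 nuclear genes of oxidative phosphorylation shifted less, with 19 higher and 2 lower (median 0.68). Other metabolic lists were more mixed, beside 39.4% higher and 38.1% lower over all genes tested. Of 21 genes of fatty acid handling 14 rose (66.7%) and 4 fell (19.0%). Of 17 genes of serotonin, histamine and eicosanoid synthesis 10 rose (58.8%) and 5 fell (29.4%). Of 5 genes of steroid synthesis 2 rose (40%) and 1 fell (20%). Of 68 cytosolic ribosomal protein genes 19 were higher, 15 lower and 34 not called (median -0.02).

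Of 13 genes of metallothioneins and zinc transport 11 rose and 1 fell (median 1.92). The member that fell was Slc30a1, a zinc exporter, at 9.89 and 11.1 CPM in cultured and 30.0 and 30.0 in fresh libraries, while Slc39a14, an importer, was at 182 and 175 against 37.2 and 30.2. Among 23 inhibitory receptors and members of the TNF families 13 rose (56.5%) and 9 fell (39.1%), with a median of 0.92. Over all genes tested 39.4% rose and 38.1% fell. Tnfrsf9 (4-1BB), a costimulatory receptor, was at 2830.4 and 2921 CPM against 8.86 and 7.01, 362-fold. Tigit, an inhibitory receptor, was at 117 and 126 CPM against 1.03 and 1.54. Pdcd1 (PD-1) was at 26.1 and 14.6 CPM against 22.4 and 22.1 and was not called (adjusted p = 0.506).

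Genes of resting lymphocytes mostly fell. Of 23 genes of quiescence and tissue exit 20 fell and 2 rose (median -2.51), beside 38.1% and 39.4% of all genes tested. Klf2, which keeps lymphocytes resting and able to recirculate, was at 164 and 174 CPM in fresh and 6.24 and 3.72 in cultured libraries, and S1pr1, the receptor that guides cells out of lymph nodes, at 92.4 and 104 against 16.8 and 16.1. The 2 genes that rose were Foxo3 (184 and 178 against 134 and 140.3 CPM) and Ccng2 (128 and 116 against 82.7 and 90.5).

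**Figure D4:**
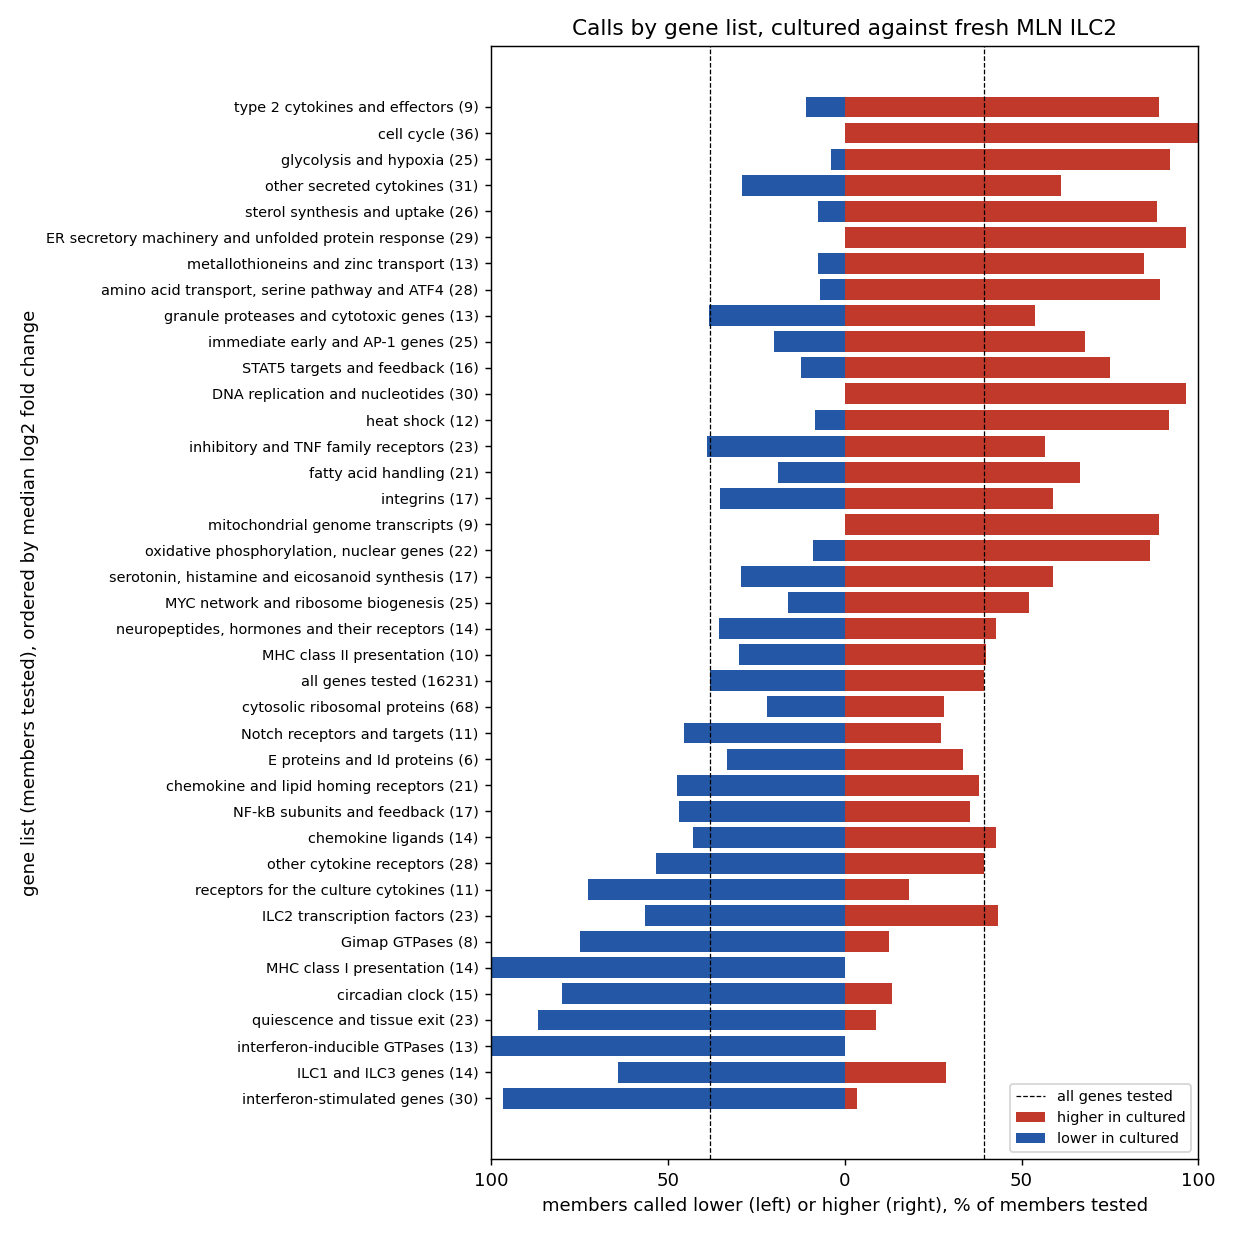
For gene lists with at least 6 members tested, the percentage of members called higher (right, red) and lower (left, blue) in cultured cells. Marker lists of other cell types are left out. Lists are ordered by median log2 fold change, and dashed lines give 39.4% and 38.1% over all genes tested. Cell cycle, glycolysis, sterol and endoplasmic reticulum lists lie mostly to the right, and interferon, MHC class I and quiescence lists mostly to the left.

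The list for receptors of the 3 culture cytokines also holds the cytokine gene Tslp. Of its 11 genes tested 8 were lower and 2 higher, beside 38.1% and 39.4% of all genes tested. The median log2 fold change was -0.57. Il17rb, the IL-25 receptor chain, was at 2895 and 2915 CPM in fresh and 118 and 106 in cultured libraries, 25.9-fold lower (log2 fold change -4.69 ± 0.09 SE, adjusted p = 6.57e-14). Il7r was at 2142 and 2418 CPM against 869 and 834, 2.68-fold lower. Il1rl1 was slightly higher, with a log2 fold change of 0.32 ± 0.07 SE (adjusted p = 9.29e-04), and with library totals alone it was no longer called (0.09, adjusted p = 0.21). Of 16 genes downstream of STAT5 12 rose (75%) and 2 fell (12.5%), beside 39.4% and 38.1% of all genes tested. Socs3, a feedback inhibitor, was at 714 and 705 CPM against 15.6 and 15.3, while Bcl2, a survival gene, fell from 302 and 351 to 24.3 and 22.8 CPM.

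Of 23 transcription factors of ILC2 10 rose (43.5%) and 13 fell (56.5%), beside 39.4% and 38.1% of all genes tested. Irf4, a factor of activated lymphocytes, was at 155 and 160.1 CPM in cultured and 0.668 and 0.637 in fresh libraries, 241-fold. The log2 fold change was 0.78 ± 0.07 SE for Gata3 and -2.07 ± 0.13 SE for Rora. Groups did not overlap in either, as in 89.2% of genes tested. Id1, the product of the transgene, was at 434 and 469 CPM in fresh, 421 and 426 in thymus and 1.48 and 1.19 in cultured libraries, 339-fold lower after culture (log2 fold change -8.41 ± 0.11 SE, adjusted p = 7.68e-15). Lck, whose proximal promoter drives the transgene, was at 214 and 181 CPM in fresh, 289 and 269 in thymus and 12.7 and 14.9 in cultured libraries. For both genes the cultured libraries were far below the other 4. Reads from the transgene and from the endogenous Id1 gene cannot be told apart in these counts. Id2, the family member that ILC2 depend on, was at 1277 and 1236 CPM in cultured and 863 and 884 in fresh libraries.

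Markers of other cell types moved between the groups beside these results. Their counts of members called stand beside 38.1% lower and 39.4% higher over all genes tested. The 16 macrophage and monocyte markers summed to 103 and 116 CPM in fresh and 22.7 and 22.3 in cultured libraries, with 10 of 13 tested lower and 2 higher (median log2 fold change -5.21, or -3.74 with genes without counts set at their bound). Cybb, a subunit of the phagocyte oxidase and itself among the shut-off genes, was at 72.2 and 66.8 CPM against 0.0603 and 0.0827, and C1qc, Mertk, Marco and Ly6c2 were without counts after culture. Cybb made up most of the sum in fresh cells, and Lyz2, the lysozyme of macrophages, was at 7.89 and 13.6 CPM against 0.0905 and 0.469. Of 13 NK cell markers tested 9 fell and 4 rose (median -6.46, or -5.50 with such genes at their bound). Klrb1c (NK1.1), a surface receptor of NK cells in C57BL/6 mice, was at 5.99 and 5.95 CPM and without counts after culture, as were Klrc1, Klra3, Klra8 and Klra9. Gzma, Prf1, Itga2 and Cd244a were the members that rose, and the summed level was therefore higher in cultured cells (238 and 354 CPM) than in fresh ones (113 and 117).

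The 18 genes of the T cell receptor and CD3 summed to 1413 and 1394 CPM in fresh and 472 and 472 in cultured libraries. Of these 12 were lower (66.7%), 2 higher (11.1%) and none at 0, beside 38.1% and 39.4% of all genes tested. Mast cell and basophil genes split within their list, with 7 of 9 tested higher and 2 lower (median 6.89, or 5.04 with such genes at their bound). Mcpt8 rose as described, Hdc, which makes histamine, was at 179 and 120.4 CPM against 1.16 and 1.25, and Cpa3, the mast cell carboxypeptidase, fell from 23.9 and 28.2 to 0.0905 and 0.110 CPM. The defining markers Ms4a2 and Prss34 were without counts in cultured cells, and Fcer1a, the other receptor chain that marks these cells, was at 0 and 0.0551 CPM. Dendritic cell markers summed to 35.2 and 40.9 CPM in fresh and 44.3 and 39.7 in cultured libraries, with 6 of 7 tested lower, 1 higher and a median of -3.66, or -3.42 with such genes at their bound. B cell markers summed to 202 and 161 CPM in fresh and 118 and 129 in cultured libraries. Of the 9 tested 4 were lower (44.4%) and 3 higher (33.3%), not far from 38.1% and 39.4% of all genes tested. Neutrophil and eosinophil markers and erythroid and platelet markers stayed under 10 CPM in sum in each of the 4 libraries. Stromal and epithelial markers summed to 174 and 162 CPM in fresh and 171 and 173 in cultured libraries. The part of such cells in the genes shut off or switched on was not tested.

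**Figure D5:**
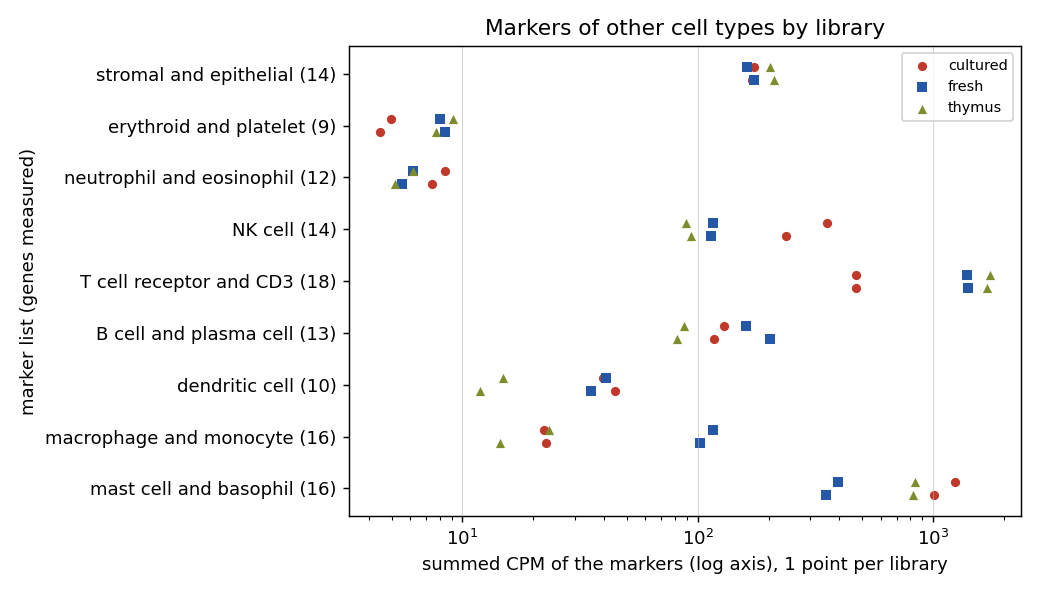
Summed CPM of the markers of 9 other cell types on a log axis, with 1 point per library and the number of genes measured in brackets. Macrophage and T cell markers are lower in the cultured libraries than in fresh ones, NK and mast cell sums are higher, and stromal sums overlap.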

How the data were processed

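RNA of 6 libraries was sequenced, 2 each of cultured MLN, fresh MLN and thymus ILC2. The deposited files hold read counts per Ensembl gene, made by the authors with HTSeq 0.5.3p9, and builds mm9 and NCBIM37 are named, per the submitters' processing notes. The aligner, the annotation release and whether counting used strand were not given in the sources used here, so genes that overlap, lie antisense or have near-identical copies have uncertain counts. No row failed to name a gene (0 rows). Depth was 35280692 to 40578264 counts per library. Intervals and floors cover counting error only.

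Symbols came from GENCODE M21 and matched 32919 of 37991 IDs; gene order and exon lengths came from the same annotation, on another build than the counts, so none of its coordinates is given. Counts were scaled by TMM and tested with edgeR 4.0.16 in R 4.3.3 (quasi-likelihood F test, filterByExpr, all 6 libraries, 1 mean per group, Benjamini-Hochberg adjustment); the SE is the log2 fold change divided by the root of F. The test was checked on simulated data. The labels do not say that libraries of a group came from separate animals or cultures, so p-values measure the spread between these libraries, which may be technical. Folds are ratios of mean CPM. Against a group without counts they are lower bounds, set at 3 counts over the group, and against 1 to 3 counts they are ratios of counts with an exact 95% interval.

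The comparison, gene lists, class limits and role groups were chosen with earlier results of these data known. Named genes were the 12 most abundant of each class, the 6 called genes that rose most and the 6 that fell most (10 CPM or more in the higher group), in each list the 4 called members that changed most (5 CPM or more), the 2 most abundant markers of each other cell type, the 10 largest shares of each group, and Id1, Gata3, Rora, Il1rl1, Thy1 and Il7r. Genes at the edges of the classes and Adora2b, Alcam, Areg, Arg1, Atf4, Calca, Calcrl, Ccng2, Cd3e, Cd8a, Csn1s2b, Csn3, Egfr, Eomes, Fcer1a, Foxo3, Hrh4, Hspa5, Htr1b, Ifng, Il33, Il4, Irf7, Itga4, Itgb7, Kitl, Ly6a, Me1, Nid1, Nmur1, P2ry2, Pdcd1, Ptger3, Pth, Pycr1, S1pr1, Sema3e, Slc30a1, Slc39a14, Tbx21, Trbj1-2 and Trpa1 were chosen after their values were seen. Some genes that meet the rule are not reported here. Alternatives were other scalings, filters, limits, DESeq2 1.42.0, a 2-fold threshold in the test, a replicate block, the 4 MLN libraries alone and leaving out each library.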

Additional observations from a re-analysis of the deposited data

How the results depend on the processing

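Results with a 2-fold threshold or other limits moved as follows. The test against a 2-fold change called 5676 genes, 3189 higher and 2487 lower, and 8 lists then had at least 75% of members called in a single direction. A near-zero limit of 0.2 CPM gave 112 genes switched on and 36 shut off, and a near-zero limit of 1 CPM gave 279 and 106. A high limit of 5 CPM gave 311 and 126, and a high limit of 20 CPM 102 and 49. With library totals alone these counts were 171 and 85. The share of the 10 most abundant genes was 8.26% in cultured and 3.91% in fresh cells against TMM-scaled totals, and 3.93% in fresh cells without mitochondrial transcripts.

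Leaving out each library in turn gave 11598 to 12953 calls, 5998 to 6629 higher and 5600 to 6324 lower, 190 to 213 genes switched on, 78 to 86 shut off and 19 to 20 lists called in a single direction; where a group kept 1 library, it was assumed to vary like the other groups. DESeq2 called 11860 genes. Lists with at least 75% of members called in a single direction numbered 18 with DESeq2 and 17 without the filter on counts. Deviations of same-numbered libraries correlated by 0.0166 between cultured and fresh MLN, by 0.146 between cultured MLN and thymus and by 0.334 between fresh MLN and thymus, over 10678 genes. The numbers were not taken to pair the cultured and fresh libraries, and the replicate block called 12738 genes, 6488 higher and 6250 lower.

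Of 3250 alternative values for named genes 3217 kept direction and side of the threshold, 31 lost the call and 2 reversed. Zap70 was at -0.16 on the log2 scale with library totals alone and was then called (edgeR adjusted p = 0.0465). Alas2 was at 0.0087 without the first fresh library and -0.32 without the second. Neither gene was called in the main comparison, and the cause was not tested. With 2 libraries per group and 3 residual degrees of freedom, small differences are the least certain.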

Other observations

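Of 21 chemokine and lipid homing receptors tested 8 rose (38.1%) and 10 fell (47.6%), and of 17 integrins 10 rose (58.8%) and 6 fell (35.3%), beside 39.4% and 38.1% of all genes tested. Ccr9, the chemokine receptor that directs lymphocytes to the small intestine, fell from 335 and 269 CPM in fresh to 0.694 and 0.276 in cultured libraries, 623-fold lower (edgeR adjusted p = 1.60e-13). Itgae (CD103), which holds lymphocytes to epithelium, fell from 77.2 and 58.0 to 3.26 and 3.97 CPM, and Itga4, a chain of the gut-homing integrin, from 2260.1 and 2001 to 357 and 413. Its partner Itgb7 was at 1168 and 1203 CPM in cultured and 1144 and 1063 in fresh libraries and was not called (edgeR adjusted p = 0.240).

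Of 14 genes of neuropeptides, hormones and their receptors tested, 6 rose (42.9%) and 5 fell (35.7%), shares close to the 39.4% and 38.1% of all genes tested. Calca, which encodes calcitonin gene-related peptide, rose from 5.29 and 9.42 to 231 and 200.2 CPM, and Nmur1, the receptor for neuromedin U, from 174 and 132 to 444 and 433. Vipr2, a receptor for vasoactive intestinal peptide, fell from 254 and 302 to 5.64 and 4.30 CPM, and Ramp1, a part of the receptor for calcitonin gene-related peptide, from 70.0 and 72.7 to 1.51 and 1.52. Calcrl, the other part of that receptor, was at 85.4 and 77.8 CPM in cultured and 77.6 and 70.9 in fresh libraries and was not called (edgeR adjusted p = 0.105). Groups did not overlap for any of the 4 called genes, which was also so for 89.2% of all genes tested.

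Of 14 genes of group 1 and group 3 innate lymphoid cells tested 9 fell (64.3%) and 4 rose (28.6%), beside 38.1% and 39.4% of all genes tested. The summed level of the list was higher in cultured (6063 and 9004 CPM) than in fresh libraries (395 and 352). The transcription factors Tbx21 and Eomes of group 1 cells were low in fresh cells and lower after culture. Tbx21, the factor of group 1 cells, was at 1.88 and 1.86 CPM in fresh libraries with 1 count over the cultured ones, and Eomes was at 2.90 and 2.76 with 2 counts. Ifng, a product of group 1 cells, was under 0.5 CPM in each MLN library.

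Of 10 genes of MHC class II presentation 4 rose and 3 fell, shares close to the 39.4% and 38.1% of all genes tested. H2-Aa and H2-Eb1, chains of the presenting molecules, fell from 11.3 and 14.8 to 0.995 and 1.19 CPM and from 9.45 and 10.9 to 1.06 and 0.937. H2-Ab1, the partner chain of H2-Aa, rose from 9.04 and 8.89 to 55.3 and 66.2 CPM, and H2-DMb1, which helps to load peptides, from 0.437 and 0.186 to 8.90 and 9.92. The 2 chains of a single molecule therefore changed in opposite directions.

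Of 15 circadian clock genes 12 fell and 2 rose, beside 38.1% and 39.4% of all genes tested. Nr1d1 (REV-ERB alpha), a clock repressor, fell from 52.4 and 56.1 to 1.33 and 1.24 CPM and Per1 from 234 and 257 to 56.3 and 54.4. The labels give no time of day. Of 11 Notch receptors and targets 5 fell (45.5%) and 3 rose (27.3%), not far from the shares over all genes. Dtx1 fell from 277 and 208 to 3.08 and 3.72 CPM and Dtx4 from 149 and 159 to 0.633 and 0.744, both ubiquitin ligases tied to Notch signalling.

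The cultured libraries differed from each other in granule genes. Gzmb took 0.515% of counts in the first and 0.771% in the second, Gzma was at 94.1 and 188 CPM and Mcpt8 at 587 and 866. In fresh libraries Gzma was at 36.2 and 32.8 CPM.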
